A study of Mus musculus with 2 samples.

Results

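The genes Insr, Irs1, Irs2, Akt2, Foxo1, Foxo3, Pdk4 and Ddit4 carry the insulin signal from its receptor to the FOXO transcription factors and beyond. They were chosen by name, with earlier results of these data known. All 15 probe sets that the platform annotation assigns to one of these 8 symbols were taken, of 22626 probe sets and 12393 genes in all. A probe set is the group of short probes that an Affymetrix array uses to read 1 transcript. Liver RNA of mice lacking apolipoprotein E was hybridised to 2 arrays. Both diets were high in fat. One added olive oil's unsaponifiable fraction, the minor components that are not fatty acid esters (the sample titled orujo, here the unsaponifiable array), and the other added olive oil (the olive oil array). The absence of apolipoprotein E and the high-fat diet are therefore shared by both arrays, and there is no array of a control diet or of wild-type mice. Whether RNA of several animals was pooled, and the animals' sex, age and fasting state, are not stated in the sources used here.

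With 1 array per diet there is no error between animals for any value below and no p-value. In whole liver, a change in the number of cells of a type cannot be told apart from a change in RNA per cell. Values are deposited intensities in arbitrary units, and a ratio is the unsaponifiable array over the olive oil array. Intensities under a floor of 35.6, the 50th percentile of both arrays, were raised to it. A probe set above the floor on 1 array only therefore gives a bound, its signal against the floor. The log2 ratios of all 10462 probe sets above the floor on both arrays had a median of −0.01 and an SD of 0.43. Probe sets that read the same gene (2057 genes) put the noise of a single log2 ratio at an SD of 0.30, which holds differences between probe sets and none between animals.

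Insulin binds a receptor tyrosine kinase, which phosphorylates the adaptors IRS1 and IRS2. These recruit a phosphoinositide kinase, whose product activates AKT kinases, and AKT phosphorylates FOXO factors and holds them outside the nucleus. In the fasted liver, FOXO factors return to the nucleus, where they activate genes of glucose production and fuel switching, and also Irs2 and Insr themselves. AKT also relieves the TSC brake on the growth kinase complex mTORC1, which the DDIT4 protein (REDD1) opposes.

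Of the 15 probe sets, 11 lay above the floor on both arrays, 1 above it on the unsaponifiable array only, and 3 on neither. Each of the 8 genes had at least 1 probe set with a ratio or bound. Of those 12 probe sets, 2 were at least 2-fold higher on the unsaponifiable array, against 1.42% of the 12151 probe sets with a ratio or bound. These were Ddit4 and Pdk4. None of the 12 was at least 2-fold lower (all probe sets: 1.15%). At a limit of 1.5-fold, Irs2 joined them, for 3 of 12 higher (all probe sets: 5.97%) and 0 lower (6.06%). Of the 11 measured on both arrays, 10 had a positive log2 ratio and 1, Irs1, a negative one, where 48.3% of all such probe sets were positive. Several of the 11 read the same gene, so they are not independent. Their median log2 ratio was 0.35. It was 0.16 without the probe sets of shared sequence and 0.49 with 1 probe set per gene. Both 0.35 and 0.49 are the values of single probe sets of shared sequence, Akt2 1424480_s_at and Foxo1 1416983_s_at.

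**Figure D1:**
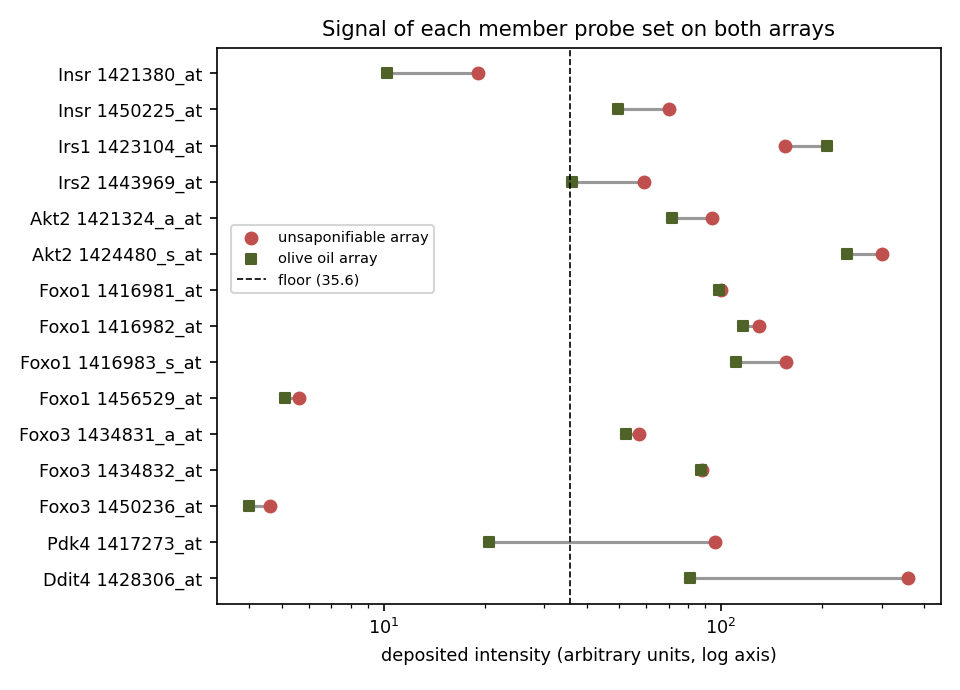
Deposited intensity (arbitrary units, log axis) of the 15 probe sets of the 8 genes, 1 row each; circles are the unsaponifiable array, squares the olive oil array, and the dashed line is the floor of 35.6. Ddit4 and Pdk4 have the longest lines, and Irs1 is the only row whose square lies to the right of its circle.

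Insr encodes the insulin receptor. Its probe set 1450225_at had an intensity of 70.1 on the unsaponifiable array and 49.7 on the olive oil array. This is a 1.41-fold higher value (log2 ratio 0.50), above 91.4% of all measured log2 ratios but short of 2-fold. The other probe set, 1421380_at, lay under the floor on both arrays, at 19.0 and 10.2, and gives no ratio. Igf1r, the receptor of insulin-like growth factors and the nearest relative of Insr, was near the floor on both arrays, at 31.2 and 38.1.

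The adaptor genes Irs1 and Irs2 lay on opposite sides of 0. Irs2, the adaptor that the liver regulates most with feeding, had an intensity of 59.3 on the unsaponifiable array and 36.1 on the olive oil array. That is 1.64-fold higher (log2 ratio 0.72), above 96.4% of all measured ratios. The olive oil value sits just above the floor, where the noise of a single ratio had an SD of 0.33. Irs1, at 154.6 and 206.5, was 1.34-fold lower (log2 ratio −0.42), and 12.1% of all measured ratios were lower still. Each adaptor was read by a single probe set, so neither value has a second reading. Irs4, another adaptor gene, passed the floor on the olive oil array alone, with 23.1 against 54.6, lower by a bound of 1.53-fold.

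The 250 bases before the transcription start of both adaptor genes are shown because Irs1 and Irs2 differed in direction while their promoters hold the same pair of motifs. The sequences are RefSeq's, build GRCm38.p6, at chr1:82291440-82291689 (Irs1) and chr8:11008930-11009179 (Irs2), both on the minus strand and written 5′ to 3′. Capitals mark every match to the 8 motifs searched.
Irs1: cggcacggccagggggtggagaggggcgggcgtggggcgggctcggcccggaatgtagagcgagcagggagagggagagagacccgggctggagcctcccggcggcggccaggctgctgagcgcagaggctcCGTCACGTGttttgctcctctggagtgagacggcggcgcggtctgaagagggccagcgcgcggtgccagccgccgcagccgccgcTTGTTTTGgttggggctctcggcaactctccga
Irs2: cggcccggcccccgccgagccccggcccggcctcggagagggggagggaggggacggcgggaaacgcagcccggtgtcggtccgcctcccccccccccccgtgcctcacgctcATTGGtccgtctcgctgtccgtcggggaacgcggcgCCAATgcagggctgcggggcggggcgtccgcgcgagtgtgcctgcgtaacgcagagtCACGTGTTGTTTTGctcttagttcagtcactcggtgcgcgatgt
The motifs, searched on both strands, were the FOXO site GTAAACA, the insulin response element CAAAACAA, the E-box CACGTG, the glucocorticoid receptor hexamer AGAACA, the CRE core TGACG, the ATF4 site TGATGNAA, the CCAAT box and the TATA box TATAAA. Both windows hold CAAAACAA on the opposite strand, printed as TTGTTTTG, at 26 to 33 bases before the start in Irs1 and 31 to 38 in Irs2. Both also hold CACGTG, at 110 to 115 bases in Irs1 and 39 to 44 in Irs2. In Irs1 the E-box overlaps a CRE core, and in Irs2 it directly precedes the insulin response element, so the capitals run together. Over all 32851 promoter windows of the same length, 2.21% hold the insulin response element, 6.02% the E-box and 0.10% (33 windows) both. This pair was counted because both adaptor windows hold it, and no other pair of motifs was, so the last share does not measure how unusual the match is. The longest run of letters that both windows share is TGTTTTGCTC, of 10 bases, which starts inside the E-box of Irs1 and inside the insulin response element of Irs2, and 21 of the 32851 windows hold it on either strand. These matches describe the letters and were not tested for binding.

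Akt2 encodes the AKT kinase most tied to insulin action in liver. Both of its probe sets were slightly higher on the unsaponifiable array. Probe set 1424480_s_at, whose name ending marks probes that can match other transcripts, was at 300.0 and 236.1 (log2 ratio 0.35). The other, 1421324_a_at, was at 94.0 and 71.5 (log2 ratio 0.39). The 2 ratios differed by 0.05, less than the noise of a single probe set, and neither reached 1.5-fold. Akt1, the most widely expressed relative, had a log2 ratio of 0.25 in its brighter probe set (170.4 and 143.2). Its second probe set was above the floor on the unsaponifiable array alone, at 48.5 against 30.6.

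The transcription factor genes Foxo1 and Foxo3 showed small ratios. Foxo1, the main FOXO factor of the hepatic fasting response, was read by 3 probe sets above the floor. Their intensities on the unsaponifiable and olive oil arrays were 100.3 and 98.5 for 1416981_at, 129.7 and 116.3 for 1416982_at, and 155.8 and 111.0 for 1416983_s_at. The log2 ratios were 0.03, 0.16 and 0.49, so the reading of Foxo1 rests on which probe set is taken. The highest comes from a probe set whose name ending (_s_at) marks probes that can match other transcripts. The remaining probe set, 1456529_at, was under the floor at 5.6 and 5.1. Foxo3, a close relative, was at 87.9 and 87.2 in 1434832_at (log2 ratio 0.01) and at 57.1 and 52.5 in 1434831_a_at (log2 ratio 0.12). Its remaining probe set, 1450236_at, was under the floor at 4.6 and 4.0. Foxo4 was under the floor on both arrays as well, at 34.0 and 6.1.

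Ddit4 encodes an inhibitor of mTORC1 that is induced by stress, glucocorticoids and energy shortage. It had the largest measured difference of the 8 genes. Its intensity was 359.2 on the unsaponifiable array and 80.9 on the olive oil array, which is 4.44-fold higher (log2 ratio 2.15). Both values lay well above the floor, and the ratio ranked 18th from the top of 10462. Among the 4246 probe sets with a mean signal above 142.4, like that of Ddit4, the log2 ratios had an SD of 0.47 and 3.49% passed 2-fold in either direction. Ddit4 was read by a single probe set.

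Pdk4 encodes a kinase that switches off pyruvate dehydrogenase and so spares glucose when fat is burnt. Its single probe set was at 96.1 on the unsaponifiable array and at 20.6, under the floor, on the olive oil array. Against the floor it was at least 2.70-fold higher. With the floor at the 25th percentile (11.8) both values counted as measured, and the ratio was 4.66-fold (log2 ratio 2.22). With the floor at the 75th percentile (101.2) Pdk4 had no ratio. The other kinases of the family did not share this size of difference: Pdk1 was at 97.3 and 70.0 (log2 ratio 0.48), Pdk2 at 183.3 and 179.2 (0.03), and Pdk3 under the floor at 2.1 and 2.6. These differences between family members were not tested.

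The promoter windows of the 2 genes past 2-fold are shown for comparison with those of the adaptors. They are RefSeq's, build GRCm38.p6, at chr6:5496279-5496528 (Pdk4) and chr10:59951771-59952020 (Ddit4), both on the minus strand, with matches to the same motifs in capitals.
Pdk4: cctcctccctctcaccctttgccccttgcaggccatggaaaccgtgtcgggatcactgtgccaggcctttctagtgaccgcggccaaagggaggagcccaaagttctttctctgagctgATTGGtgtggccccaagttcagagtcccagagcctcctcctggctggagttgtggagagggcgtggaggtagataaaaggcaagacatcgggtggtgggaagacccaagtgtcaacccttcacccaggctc
Ddit4: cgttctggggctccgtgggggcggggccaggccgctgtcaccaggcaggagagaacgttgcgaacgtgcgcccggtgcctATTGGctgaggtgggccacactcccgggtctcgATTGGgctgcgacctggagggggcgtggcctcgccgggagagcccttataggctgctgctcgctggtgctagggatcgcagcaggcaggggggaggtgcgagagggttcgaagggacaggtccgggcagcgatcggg
The Pdk4 window holds 1 CCAAT box, at 127 to 131 bases before the start. The Ddit4 window holds 2, at 133 to 137 and at 166 to 170. All 3 lie on the opposite strand, printed as ATTGG. The CCAAT box is common, with a match in 33.8% of all windows. The FOXO site (3.17% of all windows) and the glucocorticoid receptor hexamer (16.1%) were found in none of the 10 windows given for 7 of the 8 genes, Pdk4 and Ddit4 included. That says only that these letters are not in the 250 bases. The table gives no window for Insr. By base composition the windows of Ddit4, Irs1 and Irs2 were 70.0%, 72.4% and 72.8% G and C, with 22, 28 and 34 CG pairs, while that of Pdk4 was 58.8% with 6. The median over all windows was 52.4%.

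**Figure D2:**
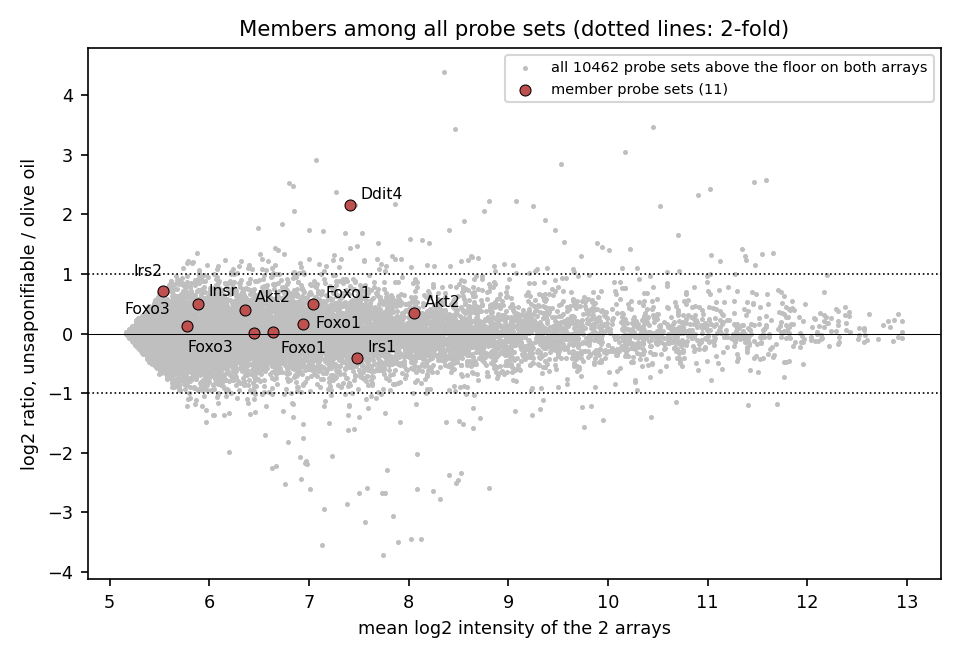
Log2 ratio (unsaponifiable over olive oil array) against the mean log2 intensity of both arrays; grey points are the 10462 probe sets above the floor on both arrays and coloured points the 11 of the named genes, with dotted lines at 2-fold. Ddit4 lies above the upper line at 2.15, the other 10 lie between −0.42 and 0.72, and Pdk4 is absent because it has a bound only.

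The other genes of the pathway were taken from 8 lists, with 1 probe set per gene, the brightest. Over all genes with a ratio or bound (7618), 1.34% were at least 2-fold higher, 1.04% at least 2-fold lower, and the median log2 ratio of genes measured on both arrays was −0.02. The cascade from the receptor to AKT and the FOXO factors had a ratio or bound for 20 of its 27 genes, and 0 of them passed 2-fold either way. Its median was 0.19 over 16 measured genes, and 0.05 over the 10 that are not among the 8 named genes. Irs2 was its highest gene. Gsk3a, a kinase that AKT inhibits, followed at 0.65 (257.3 and 164.2), and Sos1, which links receptors to RAS, at 0.55. Gab1, an adaptor of growth factor receptors, was lowest at −0.87, but its other probe sets gave −0.69 and 0.66.

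Genes that restrain insulin signalling had a median of −0.02 over 19 measured genes, with 1 of 21 at least 2-fold higher and 0 lower. The 1 was Socs2, a feedback inhibitor of cytokine and growth hormone receptors. It was at 235.2 and 56.7 in 1449109_at, 4.15-fold higher, and at 165.1 and 48.5 in a second probe set, 3.40-fold higher. Inppl1, a lipid phosphatase that opposes the phosphoinositide signal, was the lowest at 91.9 and 180.3 (log2 ratio −0.97). The protein kinase C genes Prkce and Prkcz were at −0.56 and −0.46, and the second measured probe set of Prkcz at 0.95. Ptpn2, a phosphatase gene named after its values were seen, was at 0.18 in its brightest probe set. Another of its probe sets was at 121.7 and 52.4, 2.32-fold higher, and is not in the count.

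Both genes past 2-fold around mTORC1 encode inhibitors of it, but genes of other inhibitors lay on both sides of 0. Of 21 genes of the TSC and mTOR complexes and their regulators, 2 were at least 2-fold higher and 0 lower, and the median was −0.07 over 19 measured genes, of which 12 were negative. The 2 were Ddit4 and Sesn1. Without Ddit4 it was 1 of 20, with a median of −0.11. Sesn1 encodes a sestrin, a stress protein that inhibits mTORC1 and is a FOXO target. It was at 166.9 and 63.4, 2.63-fold higher, in a probe set of shared sequence. A second probe set was above the floor on the unsaponifiable array alone, at 54.6 against 20.6. Without shared-sequence probe sets, or with the floor at the 75th percentile, 1 gene of the list passed 2-fold in place of 2. Sesn2 was at 71.9 and 41.3 (log2 ratio 0.80), with 0.66 in its other probe set. Sesn3, named after its values were seen, lay the other way, above the floor on the olive oil array alone at 32.8 against 58.2. Other inhibitor genes, also named after their values were seen, had negative log2 ratios in their brightest probe sets. Nprl2 was at −0.47, Tsc1 at −0.39, Deptor at −0.31, Nprl3 at −0.19 and Tsc2 at −0.07. The noise of a single ratio had an SD of 0.30, and the other Deptor probe sets gave −0.15 and −0.125. Mlst8, a core subunit of both mTOR complexes, was the lowest measured gene at −0.57.

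The list of FOXO factors, their modifying enzymes and the 14-3-3 proteins that bind them had 0 of 15 genes past 2-fold, with a median of −0.05 over 14. Its measured values ran from Sgk2, a kinase related to AKT, at −0.25 to Foxo1 at 0.49. That Foxo1 value is from the probe set of shared sequence, and the other measured probe sets of Foxo1 gave 0.03 and 0.16. Prmt1, a methyltransferase that modifies FOXO1, was at 0.37. The 14-3-3 gene Ywhaz was at 0.32, with its other probe sets measured on both arrays between −0.32 and 0.52.

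Of the textbook FOXO targets, 6 of 34 were at least 2-fold higher on the unsaponifiable array (17.6%) and 0 lower, with a median of 0.17 over 30 measured genes, 22 of them positive. Without the named genes Insr, Irs2 and Pdk4 the count was 5 of 31 (16.1%). The 5 were Sesn1, Ppargc1a, Igfbp1, Pnpla2 and Angptl4, of which the last 2 are named because the count is small. Sesn1 and Angptl4 were read here by probe sets of shared sequence, and the other probe set of Angptl4 was under the floor at 9.2 and 5.7. Without shared-sequence probe sets, 4 genes of the whole list passed 2-fold in place of 6. Adding the floor to each intensity also gave 4. Igfbp1, a secreted binding protein that insulin represses, was at 4741.4 and 1879.0, 2.52-fold higher. Ppargc1a, a coactivator of gluconeogenic genes, was at 144.7 and 57.2, 2.53-fold higher. The next brightest probe set read it at 75.6 and 42.1. Pnpla2, the lipase that starts triglyceride breakdown, was 2.40-fold higher, and Angptl4, an inhibitor of lipoprotein lipase, 2.06-fold. The gluconeogenic enzyme genes G6pc and Pck1, named after their values were seen, were at 0.42 and 0.16. Gabarapl1, of autophagy, was lowest at −0.77, with −0.08 in its second probe set. Part of this list had been seen to be higher on the same arrays before it was drawn up, so its count is not independent evidence of its direction.

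The subunits of pyruvate dehydrogenase lay within 2-fold. Pdk4 was the single gene of 7 past 2-fold, and the median over 6 measured genes was 0.09. Pdha1, a catalytic subunit, was at −0.24, and Dld, a shared dehydrogenase subunit, at −0.27. Dlat, the acetyltransferase subunit, was at 0.43, with 0.19 and −0.36 in its other probe sets. Genes that insulin induces in liver had a median of −0.06 over 10 measured genes, 7 of them negative, with 1 of 11 at least 2-fold higher and 0 lower. The 1 was Scd1, a fatty acid desaturase, at 4236.9 and 1906.9 (2.22-fold) in its brightest probe set, which stands for the gene in the count. Quantile normalization put that probe set under 2-fold. The second probe set of Scd1 was at 721.1 and 195.3, 3.69-fold higher. Lowest was Srebf1, a transcription factor of lipogenesis, at −0.75, followed by Pklr, liver pyruvate kinase, at −0.71 and Me1, malic enzyme, at −0.63. Acacb, named after its values were seen, was above the floor on the unsaponifiable array alone. It was at 69.3 against 29.2, at least 1.95-fold higher. With the floor at the 25th percentile, 2 genes of the list were at least 2-fold higher in place of 1. These counts rest on the brightest probe set of each gene, and the other probe sets of Pklr differed from it and from each other. One was at 135.9 and 137.7 (log2 ratio −0.02). The other was under the floor on the unsaponifiable array and at 108.2 on the olive oil array, at least 3.04-fold lower.

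**Figure D3:**
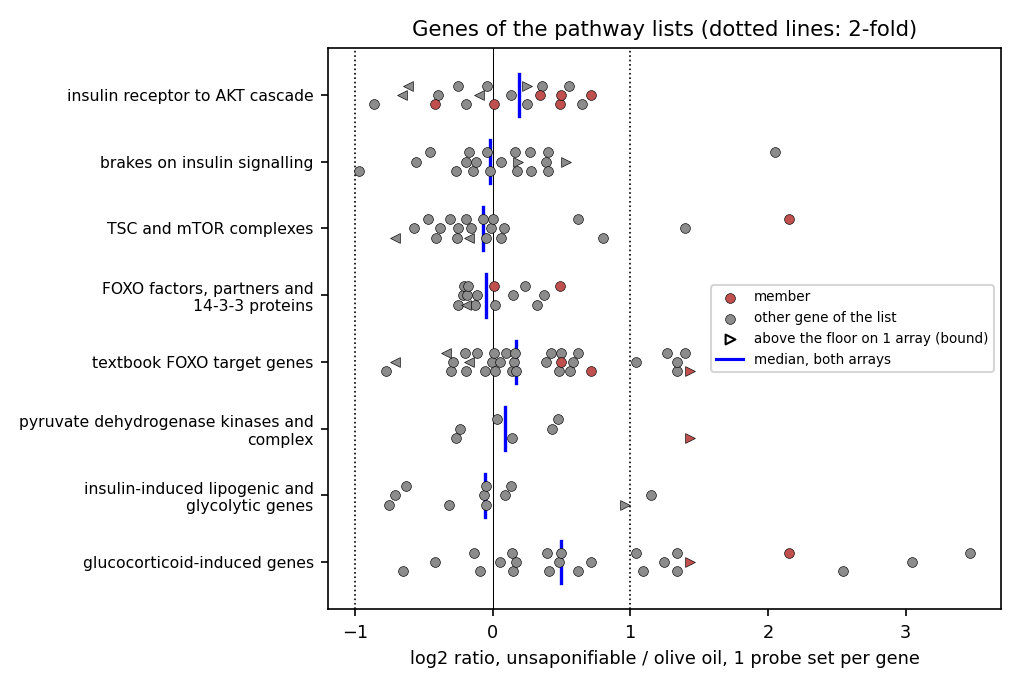
Log2 ratio (unsaponifiable over olive oil array) of each gene with a ratio or bound in the 8 pathway lists, 1 probe set per gene; coloured points are the named genes, triangles are bounds that point in their direction, blue bars are medians of genes measured on both arrays, and dotted lines mark 2-fold. The medians lie between −0.07 and 0.50, and no gene lies beyond the lower dotted line.

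Ddit4 and Pdk4 are also glucocorticoid-induced, and that list held more genes past 2-fold than any of the other 7 pathway lists. Of 24 genes, 10 were at least 2-fold higher and 0 lower, and the median was 0.50 over 23 measured genes, 19 of them positive. Without Ddit4 and Pdk4 it was 8 of 22. Mt2 and Mt1, which encode metallothioneins, were 11.1-fold and 5.84-fold higher, and Lcn2, lipocalin 2, 8.24-fold. These 3 are acute phase genes as well, and Igfbp1, Angptl4 and Pdk4 stand on both this list and that of FOXO targets. Per1, a clock gene, was lowest at −0.65. Fkbp5 and Tsc22d3, named after their values were seen, did not pass 2-fold, at 0.48 and 0.40 in their brightest probe sets. The high values of the metallothioneins and Lcn2 on these arrays were known when the list was drawn up. Its count, and its place among the lists, are therefore not independent evidence of its direction.

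Other transcripts differed between the same arrays as well. All 16 measured hepatocyte markers were above the floor on both arrays, with a median of −0.02 and summed intensities of 72736.5 and 68964.5. Pancreatic acinar markers were lower on the unsaponifiable array: 15 of 16 were at least 2-fold lower and their summed intensity was 1183.4 against 7380.2. Of 10 pancreatic islet markers, 8 were under the floor on both arrays, Ins2 (4.3 and 24.5) and Gcg (5.1 and 10.5) among them. Of 17 muscle markers, 16 were under the floor, as was Adipoq of adipocytes. The summed intensity of 11 adipocyte markers was 2154.9 against 2870.4. Most of that sum was Car3, named after its values were seen, at 1853.3 and 2600.6. A second Car3 probe set, which is not in the sum, was at 597.8 and 1391.5, 2.33-fold lower. Of the 5 adipocyte markers measured on both arrays, 2 were higher on the unsaponifiable array and 3 lower. Kupffer cell and leukocyte, endothelial and stellate cell markers had medians of 0.07, 0.10 and −0.0008. The array's controls for 18S ribosomal RNA had log2 ratios of 2.54 (5′), 2.48 (middle) and 0.34 (3′), while those for actin lay between −0.27 and 0.01. Apoe was at 99.6 and 102.7. Whether its probe set lies in the deleted part is not stated in the sources used here, so it checks neither label. The part of these differences in the ratios of the 8 genes was not tested.

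Other ways of handling the intensities changed the sizes and no sign among the 8 genes. All 12 probe sets with a ratio or bound kept their sign under every scaling, floor and probe set choice that gave them a value. Irs1 stayed negative, between −0.42 and −0.35. Ddit4 stayed between 1.76 and 2.17 and Pdk4 between 1.23 and 2.22. Irs2 ranged from 0.40, with the floor added to each intensity, to 0.76.

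**Figure D4:**
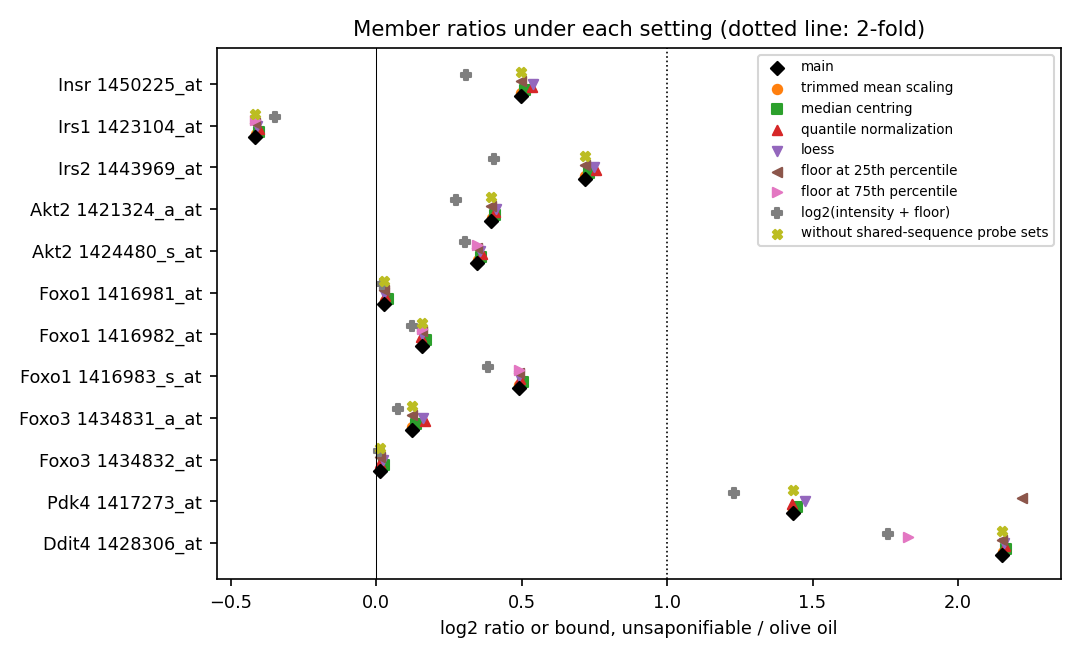
Log2 ratio or bound (unsaponifiable over olive oil array) of the 12 probe sets with a value, under the main setting (black diamonds) and 8 alternatives; the dotted line marks 2-fold. Ddit4 and Pdk4 lie right of the dotted line and Irs1 left of 0 under every setting that gave a value; with the floor at the 75th percentile, values remain for 5 of the 12: Ddit4, Irs1, 2 probe sets of Foxo1 and 1 of Akt2, so that Pdk4, Irs2, Insr and Foxo3 have none.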

How the data were processed

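The 2 arrays were hybridised with targets made from about 8 µg of total liver RNA, per the labels. The authors deposited a linear intensity with 1 decimal for each of 22690 probe sets and had scaled the arrays, since both share a trimmed mean of 100.05 (2% cut at each end). Software and detection calls are not stated in the sources used here. Control probe sets (64) were set apart. The platform annotation gave 1 symbol to 20380 of the other 22626 probe sets, several to 691 and none to 1555, and only single symbols were used. All 8 Entrez identifiers of the named genes matched RefSeq (GRCm38.p6).

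From the deposited intensities, values under the pooled 50th percentile (35.6) were set to it before taking log2 (Python 3.11.15, pandas 2.3.3). With 1 array per diet no test was run. The calculation was tested on simulated data. Genes named are the 8, their paralogs, and from each list the highest, the lowest, the 2 next largest ratios and bounds past 2-fold. Others are marked as named after their values were seen. The genes, lists and motifs were chosen with earlier results of these data known. Promoter motifs were searched in the 250 bases before each start. Alternatives were trimmed-mean scaling, median centring, quantile normalization, loess (span 0.4), log2(intensity + floor), a floor at the 25th or the 75th percentile, leaving out shared-sequence probe sets, limits of 1.5-fold and 3-fold, and other summaries of a gene's probe sets.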

Additional observations from a re-analysis of the deposited data

How the results depend on the processing

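With 1 array per diet, none of the ratios has a replicate, and near the floor only bounds can be given. The 2 probe sets at least 2-fold higher became 1 under a floor at the 75th percentile and 1 with a limit of 3-fold, Ddit4 in both cases, because Pdk4 then lay under the floor or its bound of 2.70-fold under the limit. Their number and the count of 0 lower kept within 1.5 times of the main value under the other settings. The median log2 ratio of the probe sets of the 8 genes, 0.35, fell to 0.16 without the probe sets of shared sequence and lay between 0.25 and 0.49 under the other settings. No ratio or bound of the 8 genes changed sign. The largest counts to move among the lists were those of FOXO targets, from 6 genes at least 2-fold higher to 3 with that floor and 0 with a limit of 3-fold, and of glucocorticoid-induced genes, from 10 to 4 with a limit of 3-fold. No paired analysis was possible because each diet has 1 array.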
